A study of Mus musculus with 8 samples.

Results

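The platelet-derived growth factor (PDGF) system of Neuro2a cells was described through 6 genes, the receptor genes Pdgfra and Pdgfrb and the ligand genes Pdgfa, Pdgfb, Pdgfc and Pdgfd. Neuro2a is an established mouse neuroblastoma line. Each gene was taken from the transcript cluster annotated with its symbol alone, and from the brightest such cluster by the mean of all 8 arrays where there were several. Each of the 6 had 1 such cluster, so that all 6 members were measured, of 19938 genes with a cluster of this kind and 35556 transcript clusters in all. Anchorage independent (AI) cells had grown as floating tumorspheres in serum-free NeuroCult medium with EGF at 20 ng/ml, bFGF at 10 ng/ml and heparin at 2 µg/ml. Anchorage dependent (AD) cells had grown attached in DMEM with 10% fetal bovine serum. The cells of both groups were of the same line, with no other treatment or allele named in the labels. RNA of each phenotype was hybridized to 4 Affymetrix mouse gene arrays. Attachment and medium differed together, so their effects cannot be told apart. The sample labels call the replicates biological while the methods describe replicate hybridizations, so that p-values measure the spread between these arrays, part of which may be technical.

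PDGF ligands are secreted as dimers that bring receptor chains together at the cell surface, after which the receptors phosphorylate each other and recruit enzymes and adaptors. PDGF-AA and PDGF-CC act mainly through the α receptor, encoded by Pdgfra, PDGF-DD acts mainly through the β receptor, encoded by Pdgfrb, and PDGF-BB binds both chains. The A and B chains are cut by proprotein convertases inside the cell, whereas the C and D chains leave the cell in a latent form, with a CUB domain that extracellular proteases have to remove. PDGF takes its name from platelets and reaches cultured cells with serum. In the embryo and the nervous system the β receptor is best known from pericytes and vascular smooth muscle, and the α receptor from neural crest mesenchyme and oligodendrocyte precursors.

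The 250 bases before the annotated gene start were read from RefSeq sequence of the mouse build GRCm38.p6, which matched 4 of the 6 members (Pdgfra, Pdgfa, Pdgfc and Pdgfd). The windows of 3 ligand genes are shown 5′ to 3′ on the gene's strand to set Pdgfc, the ligand gene with a called change, beside Pdgfd, the other latent ligand, and Pdgfa. The capitals mark the motifs found, which are a CArG box (CCTTATTTGG) in Pdgfc, a TATA motif (TATAAA) in Pdgfd and GC boxes (GGGCGG, read on the other strand) in Pdgfa.
Pdgfc, chr3:81036166-81036415, plus strand: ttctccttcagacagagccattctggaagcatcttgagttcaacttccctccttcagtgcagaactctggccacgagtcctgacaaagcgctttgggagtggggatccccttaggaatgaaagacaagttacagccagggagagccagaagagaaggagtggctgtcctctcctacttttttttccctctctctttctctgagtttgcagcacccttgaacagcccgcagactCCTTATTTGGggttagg
Pdgfd, chr9:6168236-6168485, plus strand: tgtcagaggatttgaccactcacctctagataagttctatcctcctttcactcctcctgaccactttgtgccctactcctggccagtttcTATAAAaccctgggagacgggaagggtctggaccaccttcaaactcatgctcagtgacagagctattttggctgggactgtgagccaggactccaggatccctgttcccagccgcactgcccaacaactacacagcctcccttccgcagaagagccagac
Pdgfa, chr5:138994945-138995194, minus strand, the more upstream of 2 annotated starts: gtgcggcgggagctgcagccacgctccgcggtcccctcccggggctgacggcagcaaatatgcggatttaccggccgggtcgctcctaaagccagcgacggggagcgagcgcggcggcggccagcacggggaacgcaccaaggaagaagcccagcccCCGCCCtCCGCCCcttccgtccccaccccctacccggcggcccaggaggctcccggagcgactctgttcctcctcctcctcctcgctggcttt

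The window of Pdgfc held 3 CG dinucleotides and that of Pdgfd also 3, against 28 in that of Pdgfa and a median of 6 over all 32851 promoter windows of this length. The window of Pdgfra held 4 and had none of the motifs. The CArG box, which is the letters that serum response factor is known to bind, lay 17 to 8 bases before the annotated start of Pdgfc. TATAAA lay 160 to 155 bases before the start of Pdgfd, and the GC boxes of Pdgfa lay 93 to 88 and 86 to 81 bases before its start. A CArG box was present in 1.47% of all windows, TATAAA in 12.4% and GGGCGG in 32.7%, each searched on both strands. The CArG box was chosen as a motif after the sequences were seen, so that its share does not measure how unusual the match in Pdgfc is. The CCAAT box, the AP-1 site (TGANTCA) and the E-box (CACGTG) were searched in the same way and were found in none of the windows printed here. These matches describe the letters of the windows, and the arrays hold no measurement of factor binding.

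The signal of a cluster was the log2 value that the authors obtained after GCRMA background correction and normalization. Array medians were 5.92 to 5.99 in AI cells and 5.82 to 5.92 in AD cells. Differences between AI and AD arrays were fitted for every cluster in limma, p-values were adjusted over all of them by Benjamini-Hochberg, and "called" stands for an adjusted p under 0.05 together with a change of at least 1.5-fold. In all, 3.93% of the clusters were called, 901 higher and 495 lower in AI cells, and with the arrays centred on their medians the split was 647 higher and 731 lower. Since the table gives no detection calls, the 1035 olfactory receptor clusters served as a range for genes that this line is not known to use. Their median was 5.04 log2 in AI cells and 5.00 in AD cells, and their 95th percentile was 5.62 in AI cells and 5.56 in AD cells. AD replicate 4 stood away from the rest of its group on the second principal component, which held 15.1% of the variance, and the values without it are given where a result of the members rests on it. Of 18 measured markers of sympathetic neuroblastoma cells, 15 lay above the olfactory range in both phenotypes, among them the neuronal genes Stmn2 (11.85 log2 in AI cells and 11.80 in AD cells) and Prph (11.71 in AI cells and 11.57 in AD cells). Of these 18 markers, 3 were called, all lower in AI cells, namely the noradrenaline synthesis genes Dbh and Th and the transcription factor gene Phox2a. At any fold, 7 of the 18 passed the adjusted p lower and 2 higher in AI cells, against 8.5% and 9.62% of all clusters. Th, at a log2 ratio of -0.60, was not called with array weights (-0.58), without AI replicate 4 (-0.55) or without AD replicate 3 (-0.57).

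Pdgfrb and Pdgfc were higher in AI cells and the other 4 members were not called. The 2 of 6 members called compare with 3.93% of all clusters, and with 2.53% called higher and 1.39% called lower in AI cells. Without the fold requirement, 3 of 6 members passed the adjusted p, all higher in AI cells, against 18.1% of all clusters and 9.62% higher in AI cells. For the same 3 genes, Pdgfrb, Pdgfc and Pdgfb, no AD array reached the range of the AI arrays, against 22.1% of all clusters whose groups did not overlap and 11.5% that did so with higher signals in AI cells. The median log2 ratio of AI over AD was 0.27 for the 6 members and 7.76e-04 for all clusters. The cluster of each gene was to be selected on its mean signal over all 8 arrays, which does not use the difference between the phenotypes, but the gene family was chosen with results of the same arrays known, so that the counts describe them and are not independent evidence.

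**Figure D1:**
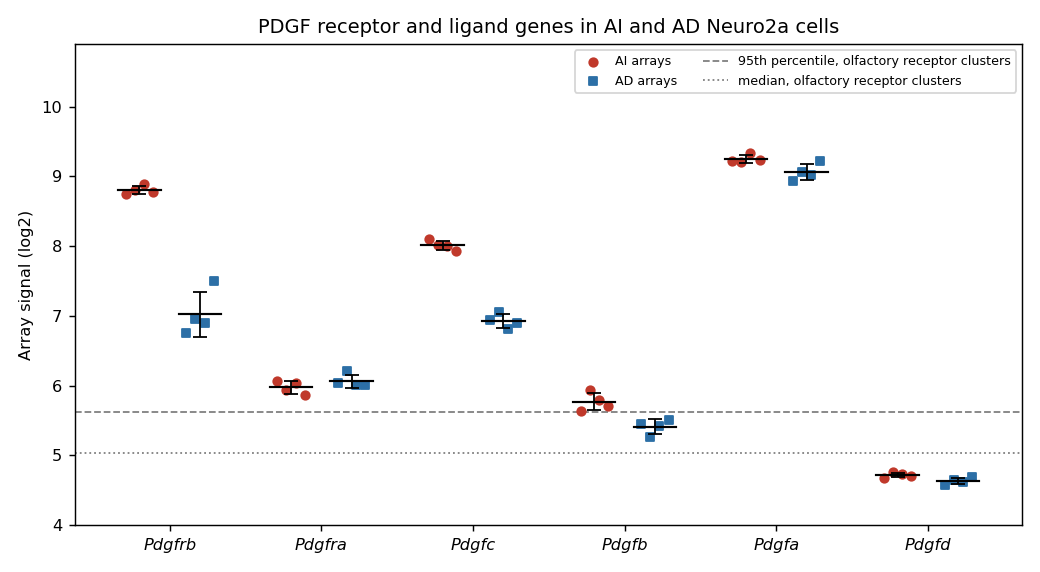
Log2 signal (y axis) of the 6 PDGF receptor and ligand genes on each of the 4 AI and 4 AD arrays, with AI to the left of AD for each gene, points for arrays and black bars for the mean and SD. The dashed and dotted lines mark the 95th percentile and the median of olfactory receptor clusters in the phenotype where it was higher. Pdgfrb lay at 8.75 to 8.89 in AI cells and at 6.76 to 7.49 in AD cells, while the arrays of Pdgfra, Pdgfa and Pdgfd overlapped.

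The receptor genes differed in their change. The signal of Pdgfrb (transcript cluster 10456046) was 8.75, 8.80, 8.89 and 8.78 log2 in AI replicates 1 to 4, against 6.76, 6.96, 6.90 and 7.49 in AD replicates 1 to 4. All 4 AI arrays were high and close together, and the nearest AD array, replicate 4, lay 1.26 below the lowest of them. Pdgfrb averaged 8.81 ± 0.06 in AI cells and 7.03 ± 0.32 in AD cells (SD, n = 4 each), which is a log2 ratio of 1.78 with a standard error of 0.14, or 3.44-fold higher in AI cells (95% interval 2.77 to 4.27). The limma adjusted p was 6.23e-05, and the exact two-sided permutation p was 0.0286, the smallest that 4 against 4 arrays allow. Among the 19938 genes, Pdgfrb held rank 18 by increase in AI cells. Without AD replicate 4 the log2 ratio was 1.94, or 3.83-fold. In the bulk RNA of a culture, more cells that use a gene and more of its RNA per cell cannot be told apart.

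Pdgfra (transcript cluster 10522503), the gene of the α receptor, had signals of 6.06, 5.94, 6.04 and 5.86 log2 in AI cells, against 6.03, 6.20, 6.0 and 6.0 in AD cells. The arrays of the phenotypes were interleaved, and all 8 lay just above the olfactory range and near the median of their array. Pdgfra averaged 5.98 ± 0.09 in AI cells and 6.06 ± 0.10 in AD cells (SD, n = 4 each). The log2 ratio was -0.08 (95% interval -0.24 to 0.07), with a limma adjusted p of 0.484 and an exact permutation p of 0.314. The change of Pdgfrb exceeded that of Pdgfra by 1.86 on the log2 scale, or 3.64-fold. In an exact two-sided permutation test on the difference between the receptor signals of each array, p was 0.0286, or 0.04 after adjustment over the 7 pairs of members compared. The adjusted value rests in part on small p-values of pairs with Pdgfb or Pdgfd, from which no unequal change is read below. As the gene family was chosen with results of these arrays known, this p is not independent evidence.

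Among the ligand genes, Pdgfc (transcript cluster 10492689) rose. Its product binds the α receptor once its CUB domain is removed. Its signal was 8.10, 8.02, 8.0 and 7.93 log2 in AI cells, against 6.94, 7.05, 6.81 and 6.90 in AD cells. Each AI array lay above each AD array by 0.88 or more, and AD replicate 4 lay among the other AD arrays here. Pdgfc averaged 8.01 ± 0.07 in AI cells and 6.92 ± 0.10 in AD cells (SD, n = 4 each), so that the log2 ratio was 1.09 with a standard error of 0.06, or 2.12-fold higher in AI cells (95% interval 1.92 to 2.35). The limma adjusted p was 1.46e-05 and the exact permutation p was 0.0286. Pdgfc held rank 76 of 19938 genes by increase in AI cells, and its ratio without AD replicate 4 was 1.08.

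Pdgfb (transcript cluster 10430660), which encodes the chain that binds both receptors, had signals of 5.64, 5.93, 5.79 and 5.71 log2 in AI cells, against 5.45, 5.26, 5.42 and 5.51 in AD cells. The arrays did not overlap, with 0.14 between the closest arrays of the phenotypes, and the mean lay above the olfactory range in AI cells and within it in AD cells. Pdgfb averaged 5.77 ± 0.12 in AI cells and 5.41 ± 0.10 in AD cells (SD, n = 4 each), so that the log2 ratio was 0.36, or 1.28-fold (95% interval 1.13 to 1.45). It passed the adjusted p (0.0126 in limma) but not the 1.5-fold requirement. The ratio of a gene whose signal lies this near the floor may understate the change of its RNA.

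Pdgfa (transcript cluster 10535043), which encodes the A chain, had signals of 9.22, 9.21, 9.34 and 9.24 log2 in AI cells, against 8.94, 9.07, 9.02 and 9.22 in AD cells. The groups touched at AD replicate 4, and the other 3 AD arrays lay below every AI array. The mean was 9.25 ± 0.06 in AI cells and 9.06 ± 0.12 in AD cells (SD, n = 4 each), with a log2 ratio of 0.19 (95% interval 0.03 to 0.34), a limma adjusted p of 0.0943 and an exact permutation p of 0.0571. Without AD replicate 4 the ratio was 0.24, with a limma adjusted p of 0.020 and still under 1.5-fold. Pdgfd (transcript cluster 10583021), which encodes the other latent ligand, had signals of 4.68, 4.76, 4.73 and 4.70 log2 in AI cells, against 4.57, 4.65, 4.61 and 4.69 in AD cells. All 8 values lay within the olfactory range and below the median of their array, so that a level above background was not detectable. The log2 ratio of Pdgfd was 0.09 (95% interval -0.03 to 0.20), with a limma adjusted p of 0.299.

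The ligand genes were compared pair by pair for unequal change. The change of Pdgfc exceeded that of Pdgfa by 0.90 on the log2 scale (1.86-fold), with an exact two-sided permutation p of 0.0286, or 0.04 after adjustment over the 7 pairs. This adjusted value has the same limits as that of the receptor pair. Pdgfc and Pdgfa lay above the olfactory range in both phenotypes. Pdgfb lay within that range in AD cells and Pdgfd in both phenotypes, so that the size of their change is not known and no unequal change was read from the 5 ligand pairs that hold either gene.

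**Figure D2:**
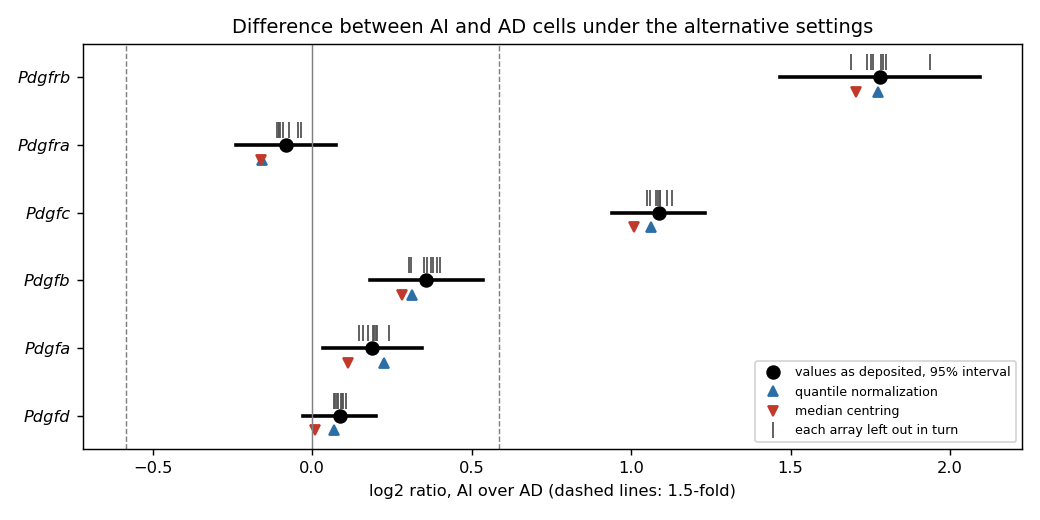
Log2 ratio of AI over AD (x axis) of the 6 PDGF genes, with black points and bars for the limma estimate and its 95% interval, triangles for quantile normalization and median centring, and ticks for each array left out in turn. The intervals of Pdgfrb (1.47 to 2.09) and Pdgfc (0.94 to 1.23) lie beyond the 1.5-fold line, and those of Pdgfra (-0.24 to 0.07) and Pdgfd (-0.03 to 0.20) include 0.

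Markers of cell types known for PDGF receptors were read beside Pdgfrb. Of 15 mural cell markers, 5 lay above the olfactory range in AI cells and 4 in AD cells, and the summed log2 signal of the list was 86.6 to 87.3 in AI cells and 83.2 to 85.3 in AD cells. Acta2, the smooth muscle actin, was the only mural marker called, with 7.61 ± 0.09 in AI cells and 5.91 ± 0.06 in AD cells and a log2 ratio of 1.69 (limma adjusted p = 6.50e-07). With Acta2, 4 mural markers passed the adjusted p, all higher in AI cells and none lower. Among all clusters, 9.62% passed at any fold with higher signals in AI cells and 8.5% with lower ones. The other mural markers that passed were Mcam, at 10.09 in AI cells and 9.69 in AD cells (ratio 0.40, limma adjusted p = 0.00608), the pericyte marker Rgs5, at 5.76 in AI cells, above the olfactory range, and 5.53 in AD cells, within it (ratio 0.23, limma adjusted p = 0.0158), and Vtn, within the range in both phenotypes (ratio 0.31, limma adjusted p = 0.0275). Des and Notch3 did not pass, with Des at 7.13 in AI cells and 6.86 in AD cells and Notch3 at 5.80 in AI cells and 5.61 in AD cells. The other 9 mural markers, the pericyte markers Kcnj8, Abcc9 and Cspg4 and the smooth muscle genes Myh11, Tagln and Cnn1 among them, lay within the olfactory range in both phenotypes and did not pass. Rgs5, Vtn and these 6 genes were looked up after their values were seen. Of 18 fibroblast markers, 6 lay above the olfactory range in each phenotype, with a summed signal of 107.6 to 108.4 in AI cells and 107.1 to 108.8 in AD cells. Of this list 2 genes passed the adjusted p, both higher in AI cells. Fn1, which encodes fibronectin, was called, with 11.28 in AI cells and 10.60 in AD cells, and the collagen gene Col6a1 passed at under 1.5-fold, with 6.16 in AI cells and 5.75 in AD cells (ratio 0.41, limma adjusted p = 0.00601). The fibroblast collagen gene Col1a1 was at 5.79 in both phenotypes and Dcn and Lum lay within the olfactory range. Col1a1, Dcn and Lum were looked up after their values were seen. The part of the mural and fibroblast markers in the difference of Pdgfrb was not tested.

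The lists of other cell types gave few calls. None of 11 oligodendrocyte precursor markers was called, and their summed signal was 62.4 to 63.0 in AI cells and 62.7 to 64.1 in AD cells. Cnp, Sox8 and Mbp were the brightest of them. Olig1, Olig2 and Sox10 lay within the olfactory range and were looked up after their values were seen. Of 9 Schwann cell and neural crest markers, Ngfr, the low-affinity neurotrophin receptor, was lower in AI cells by a log2 ratio of -0.70, while Erbb3, a neuregulin receptor, passed the adjusted p in the other direction at under 1.5-fold (ratio 0.52, limma adjusted p = 0.00170). Sox9 and Tfap2b, the next by mean signal, did not pass. None of 9 endothelial and none of 9 macrophage markers was called. Of the endothelial markers, 3 lay above the olfactory range in AI cells and 2 in AD cells, and no macrophage marker did in either phenotype. Of 15 proliferation genes, 8 were called lower in AI cells and none higher, where 1.39% of all clusters were called lower. At any fold all 15 passed the adjusted p with lower signals in AI cells, against 8.5% of all clusters. The mean signal of the list was 9.16 to 9.46 in AI cells. It was 9.76 in AD replicate 4 and 10.08 to 10.13 in the other AD arrays. AD replicate 4 thus lay nearest the AI arrays both for this list and for Pdgfrb, and the part of the one in the other was not tested.

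Genes that act with the PDGF system were read from 7 lists, of which 112 of 115 genes were measured. In all, 7 were called higher and 2 lower in AI cells, where 3.93% of all clusters and 4.41% of all named genes were called in either direction. With arrays centred on their medians 3 were higher and 2 lower. No list had more than 5 called genes.

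**Figure D3:**
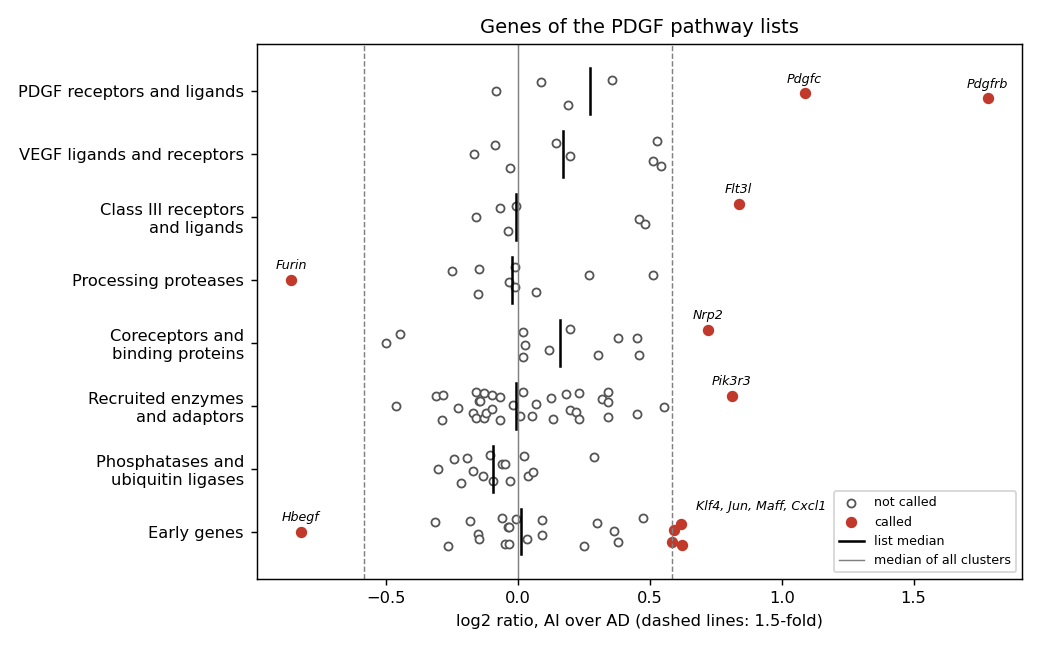
Log2 ratio of AI over AD (x axis) of the genes of the PDGF pathway lists (rows), with filled points for called genes, open points for the rest and a bar for the list median. The called genes beyond the PDGF genes are Furin and Hbegf, which were lower, and Flt3l, Nrp2, Pik3r3, Jun, Klf4, Maff and Cxcl1, which were higher in AI cells.

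The proteases that process PDGF ligands had 1 called gene of 10 measured, against 3.93% of all clusters, and the list median was -0.02. At any fold 2 passed the adjusted p higher and 1 lower in AI cells, against 9.62% and 8.5% of all clusters. Furin, a convertase that cuts the A and B chains, fell to 8.83 ± 0.07 in AI cells, against 9.69 ± 0.07 in AD cells (SD, n = 4 each), so that the log2 ratio was -0.86 with a limma adjusted p of 2.89e-05. Pcsk6, a related convertase, was higher in AI cells at the adjusted p but under 1.5-fold, with 9.56 in AI cells and 9.05 in AD cells. Plat, the tissue plasminogen activator that removes the CUB domain of PDGF-C, was not called, with 8.85 in AI cells and 9.0 in AD cells (adjusted p = 0.293). Bmp1, a CUB domain protease, had 8.50 in AI cells and 8.23 in AD cells. It passed the adjusted p (0.0217 in limma) at under 1.5-fold and was not called. Plau, the urokinase known to activate PDGF-D, lay within the olfactory range in both phenotypes and was looked up after its value was seen.

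The coreceptors and extracellular binding proteins had 1 called gene of 12, against 3.93% of all clusters, with a list median of 0.16. Nrp2, a neuropilin that binds growth factors of the VEGF family and semaphorins, was higher in AI cells, with 9.72 ± 0.02 in AI cells and 9.0 ± 0.08 in AD cells and a log2 ratio of 0.72 (limma adjusted p = 5.12e-05). Its relative Nrp1 ran the other way, with 9.37 ± 0.20 in AI cells and 9.87 ± 0.24 in AD cells and a log2 ratio of -0.50 (adjusted p = 0.0301), and it was called without AD replicate 4 at -0.62. Sparc, a matrix protein that binds PDGF-B, had 11.51 in AI cells and 11.05 in AD cells, and Agrn, a heparan sulfate proteoglycan, had 9.89 in AI cells and 9.44 in AD cells. Both passed the adjusted p without reaching 1.5-fold, and across the list 5 genes did so or were called in the upward direction and 2 in the downward direction. The shares of all clusters that passed at any fold were 9.62% upward and 8.5% downward.

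The families nearest to the PDGF genes were the VEGF genes and the class III receptors with their ligands. None of 8 VEGF genes was called with all arrays, and 1 was called without AI replicate 3 and 1 without AD replicate 3. In all, 4 ligand genes passed the adjusted p with higher signals in AI cells at under 1.5-fold, where 9.62% of all clusters passed upward at any fold. These 4 genes included Vegfa, the main endothelial growth factor, with 10.22 in AI cells and 9.70 in AD cells. Vegfb, another of them, had 9.68 in AI cells and 9.48 in AD cells. Pgf, the placental growth factor, had 9.17 in AI cells and 9.03 in AD cells. Of 7 class III genes 1 was called, against 3.93% of all clusters. This was Flt3l, the ligand of the FLT3 receptor, with 8.15 ± 0.13 in AI cells and 7.31 ± 0.04 in AD cells. Its log2 ratio was 0.84 (limma adjusted p = 7.97e-05). Csf1 and Il34, both ligands of the CSF1 receptor, passed the adjusted p at ratios of 0.48 and 0.46. The AD signal of Il34, 5.20 against 5.66 in AI cells, lay within the olfactory range, so that its ratio is not known exactly. Kit, the receptor of stem cell factor, was at 5.32 in AI cells and 5.38 in AD cells, within the olfactory range.

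Downstream of the receptors, 1 of 36 recruited enzymes and adaptors was called, against 3.93% of all clusters, and the list median was -0.01. At any fold, 9 of the 36 passed the adjusted p with higher and 4 with lower signals in AI cells. Of all clusters, 9.62% passed higher and 8.5% lower. Pik3r3, a regulatory subunit of phosphoinositide 3-kinase, was higher in AI cells, with 9.53 ± 0.10 in AI cells and 8.72 ± 0.09 in AD cells and a log2 ratio of 0.81 (limma adjusted p = 9.25e-05). Rasa1, the Ras GTPase-activating protein that docks on the β receptor, had 10.05 in AI cells and 10.51 in AD cells, which passed the adjusted p at under 1.5-fold, whereas Sos2, a Ras exchange factor, had a ratio of -0.12 (adjusted p = 0.245). Shc1, an adaptor, had a ratio of 0.18, which passed the adjusted p (0.0424 in limma) at under 1.5-fold. None of the 15 phosphatases and ubiquitin ligases of the receptors was called and their median was -0.09. Ptprj, a receptor phosphatase known to act on the β receptor, had a ratio of 0.29, Ptpn12 -0.30 and Acp1 -0.24, each past the adjusted p and under 1.5-fold.

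The early genes, taken from what PDGF is known to induce in fibroblasts, had a list median of 0.01. Of the 24, 4 were called higher and 1 lower, against 2.53% and 1.39% of all clusters. At any fold 7 passed the adjusted p higher and 1 lower, against 9.62% and 8.5% of all clusters. The called increases were 0.62 for the chemokine gene Cxcl1 and, for transcription factor genes, 0.62 for Maff, 0.59 for Jun and 0.59 for Klf4. All 4 fell under 1.5-fold when the arrays were centred on their medians, with ratios of 0.54 for Cxcl1, 0.54 for Maff, 0.52 for Jun and 0.51 for Klf4. Klf4, the nearest to 1.5-fold, was also not called under quantile normalization (0.53), with array weights (0.58), or without AI replicate 1, 2 or 3 or AD replicate 1 or 4 (0.54 to 0.58). Cxcl1 was not called under quantile normalization (0.56), without AI replicate 4 (0.55) or without AD replicate 2 (0.54). Jun was not called without AI replicate 2 or 3 or AD replicate 1 (0.57 to 0.58), nor Maff without AI replicate 1 (0.58). With 1 array left out, 3 to 5 genes of the list were called. Hbegf, a ligand of the EGF receptor, was lower in AI cells, with 6.50 ± 0.09 in AI cells and 7.33 ± 0.18 in AD cells and a log2 ratio of -0.82 (limma adjusted p = 3.84e-04). Myc and the feedback phosphatase gene Dusp6 had ratios of 0.09 and -0.03 and were not called, and Dusp1 had 0.48 at under 1.5-fold. Fos and Egr1, singled out after their values were seen, had ratios of -0.01 and -0.15 and were not called either. The EGF and bFGF in the AI medium and the serum in the AD medium are known to induce many of these genes too, and no value here separates their part from that of PDGF.

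The genes most like Pdgfrb and Pdgfc across the 8 arrays were found by the Euclidean distance between log2 signals, each taken relative to the gene's own mean, over 19937 other genes. For Pdgfrb they were Lgals9, a galectin, at a distance of 0.208, the matrix proteoglycan gene Bgn at 0.289, the tetraspanin gene Cd82 at 0.340, the retrieval receptor gene Kdelr3 at 0.364 and Pf4, a chemokine known from platelets, at 0.370. Lgals9 averaged 11.04 in AI cells and 9.15 in AD cells, a log2 ratio of 1.89, and Cd82 9.60 in AI cells and 7.71 in AD cells. AD replicate 4 was the highest AD array for each of the 5, as it was for Pdgfrb, with 9.62 for Lgals9 and 8.20 for Cd82. Since the 5 genes were picked on these same 8 values, this likeness follows from the selection and is not a separate result. The AD signal of Bgn, 5.54 against 7.37 in AI cells, lay within the olfactory range, so that its ratio is not known exactly.

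For Pdgfc the nearest genes were Brinp2, a neuronal gene, at 0.20, Emid1 at 0.202, Lrig1, an inhibitor of EGF receptor signalling, at 0.219, Ugt3a2 at 0.226 and Niban1 at 0.231. Their log2 ratios of AI over AD ran between 0.97 for Ugt3a2 and 1.13 for Brinp2, and AD replicate 4 was the highest AD array for Niban1 only. Niban1 averaged 10.42 in AI cells and 9.42 in AD cells. The AD signal of Ugt3a2, 5.22 against 6.19 in AI cells, lay within the olfactory range. By this distance the PDGF genes themselves were not each other's nearest. Pdgfc ranked 86 from Pdgfrb and Pdgfrb ranked 1550 from Pdgfc, at a distance of 1.16. The distance also counts the size of the change, which was 1.78 log2 for Pdgfrb and 1.09 for Pdgfc. The Pearson correlation of their signals over the 8 arrays was 0.964, which the difference between the phenotypes also raises.

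**Figure D4:**
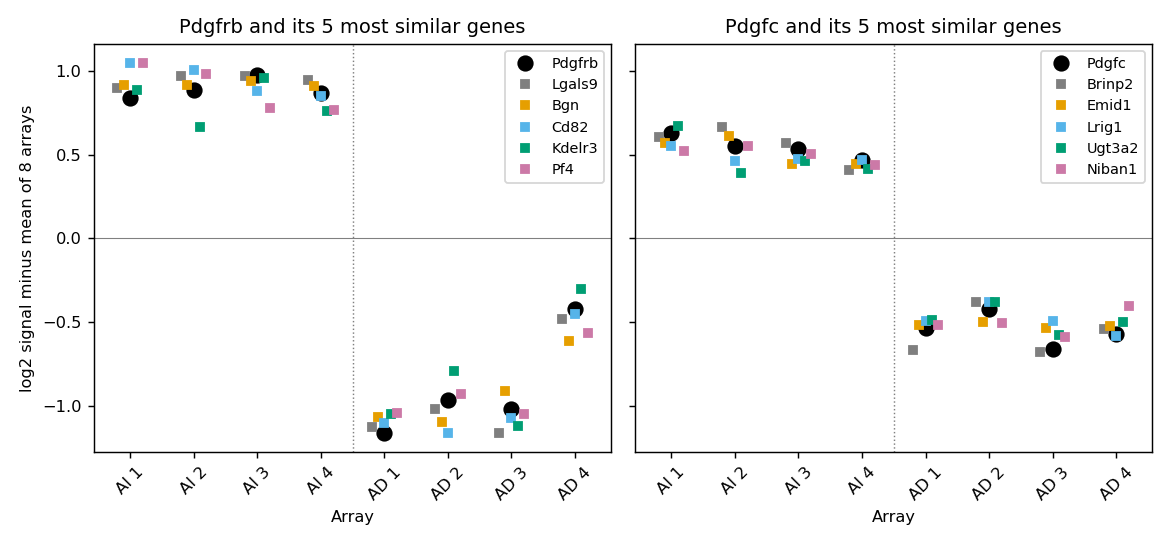
Log2 signal minus the mean of the 8 arrays (y axis) for Pdgfrb (left) and Pdgfc (right) as black points, with the 5 genes nearest to each as coloured squares, on AI replicates 1 to 4 and then AD replicates 1 to 4 (x axis). AD replicate 4 lies above the other AD arrays for Pdgfrb and its neighbours, whereas for Pdgfc it lies close to them. The neighbours were picked on these same values, so that their likeness follows from the selection.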

How the data were processed

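Neuro2a RNA was measured on 4 AI and 4 AD arrays. The deposited table holds, for 35556 transcript clusters, log2 signals that the authors had background-corrected and normalized with GCRMA. The submitters' processing notes name Partek 6.5 and GCRMA, and the genome build is not given in the sources used here. Arrays give no counts, so the number of arrays limits the precision. Values were used as deposited, with no filter, and no arrays were identical. Of the clusters, 21789 carried 1 symbol, 1621 several and 12146 none usable. RefSeq (GRCm38.p6) matched 21698 by gene number, and no symbol had to be updated.

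AI minus AD was fitted by lmFit and eBayes of limma 3.58.1 (R 4.3.3) without covariates, after the 1-factor model, false discovery rate and fold threshold of the methods. Permutation tests, distances and plots used Python 3.11.15 with scipy 1.17.1, pandas 2.3.3, numpy 2.4.6 and matplotlib 3.10.9. The fit was tested on simulated data.

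The members and lists were chosen with earlier results of these data known. Named genes are the 6 members, the called genes of each list (up to 4 per direction), its 3 uncalled genes of highest mean signal, and the 5 genes most similar to each called member. Other genes in the text were looked up after their values were seen. CArG boxes were chosen as a motif after the promoter sequences were seen.

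Alternatives were quantile normalization, median centring, a filter on the dimmest 40 percent of clusters, unmoderated analysis of variance, trended and robust moderation, array weights, the replicate number as a block, other thresholds, and leaving out each array.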

Additional observations from a re-analysis of the deposited data

Results flagged for a closer look

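A single array stood away from the other 3 of its group in 11 of 160 group values of 80 named genes, by Dixon's criterion for 4 arrays, where chance alone gives about 1 in 20. Among the PDGF genes this was so for Pdgfra only, with AD replicate 2 at 6.20 log2 and the other AD arrays at 6.0 to 6.03.

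AD replicate 4 was the array concerned for the chromatin remodeler gene Hells (8.80, others 9.48 to 9.59), the exonuclease gene Exo1 (8.05, others 8.90 to 8.93) and Cd82, a neighbour of Pdgfrb (8.20, others 7.50 to 7.58). AD replicate 1 was low for Fn1 (10.50, others 10.62 to 10.64) and Cnp (8.09, others 8.37 to 8.40), and AD replicate 2 was low for Tyrobp (4.80, others 5.20 to 5.28). Among AI arrays, replicate 1 was high for Fcer1g (5.66, others 5.50 to 5.53) and Lrig1 (9.10, others 9.01 to 9.02), replicate 2 was high for Myc (11.07, others 10.93 to 10.95), and replicate 4 was low for Chgb (11.04, others at 11.11).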

How the results depend on the processing

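All 6 PDGF genes kept their direction and their side of the thresholds under each alternative run, which were 17 for each gene and 16 for Pdgfd, as the filter on dim clusters removed it. With 1 array left out, the log2 ratio of AI over AD ran from 1.69 to 1.94 for Pdgfrb and from 1.05 to 1.13 for Pdgfc. Under the other settings it ran from 1.70 to 1.88 for Pdgfrb and from 1.01 to 1.12 for Pdgfc. The limma adjusted p of Pdgfb ran from 0.00884 to 0.0576 and that of Pdgfa from 0.020 to 0.275, so that passing the adjusted p depended on the setting for both. The mean of clusters of a gene was not run, since each member had 1 cluster.

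Replicate numbers did not pair the arrays, as the deviations of same-numbered arrays correlated at -0.17 to 0.08. With the replicate number as a block, 1352 clusters were called instead of 1396, Pdgfrb stayed at 1.78 with a limma adjusted p of 0.00153 and Pdgfc at 1.09 with 0.00118. The count of all clusters was 254 at 2-fold, and 1217 to 1636 with 1 array left out. Median centring, which moved the median ratio by -0.0765, left 5 of the 9 called genes of the pathway lists. With 1 array left out the differences in change were 1.78 to 2.04 for Pdgfrb over Pdgfra, 0.66 to 0.82 for Pdgfc over Pdgfb, 0.84 to 0.94 for Pdgfc over Pdgfa, 0.96 to 1.04 for Pdgfc over Pdgfd and 0.22 to 0.31 for Pdgfb over Pdgfd. Pdgfd was within the olfactory range in both phenotypes and Pdgfb in AD cells, so that the differences that hold either gene do not give the size of an unequal change. None of these could pass the threshold with 3 arrays against 4, where the smallest permutation p is 0.0571.

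Of 1254 values of 74 other named genes, 1197 kept their direction and side of the threshold, 36 fell below it, 3 rose above it and 18 changed sign, all of ratios near 0. Median centring turned Stmn2 to -0.0313, Vim to -0.0693, Cnp to -0.0063, Sox8 to -0.0348, Tfap2b to -0.0420 and Fcer1g to -0.0428. Quantile normalization turned Tfap2b to -0.0108 and Fcer1g to -0.0150, and array weights turned Mbp to 0.0094. With 1 array left out, Vim ran from -0.0090 to 0.0261, Cnp from -0.0034 to 0.11, Mbp from -0.0288 to 0.0417 and Fcer1g from -0.0244 to 0.10. The cause of these shifts was not tested.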
